A study of Mus musculus with 9 samples.

Results

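The data on 10 basic helix-loop-helix genes are described here, of the 34590 genes in the count files, chosen by gene symbol. They are the proneural genes Neurog1 and Neurog2, the differentiation genes Neurod4, Neurod1 and Nhlh1, the genes of young neurons Neurod2, Neurod6 and Bhlhe22, and the E protein genes Tcf3 and Tcf4. RNA was sequenced from telencephalons of mouse embryos of mixed background at stage E12.5, with 4 libraries from embryos with a double knockout of Lats1 and Lats2 under Nestin-Cre (dKO) and 5 from wild-type embryos (WT). Whether the WT embryos carried floxed alleles or Cre, and which embryos were littermates, is not given in the sources used here. Nestin-Cre acts mainly in neural progenitors and so in their descendants, while vessels, blood and meninges in the same tissue come from other lineages. Equal numbers of counted cells were taken for each library and ERCC spike-ins, synthetic RNAs of known amount, were added in proportion to them. The values are on a pair of scales. CPM, counts scaled to a common library size by the TMM method, set a gene against the typical gene of its library, and counts per 1000 spike-in counts set it against the number of counted cells.

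Basic helix-loop-helix (bHLH) factors bind E-box DNA, CANNTG, as dimers in which a tissue-restricted protein pairs with a broadly expressed E protein. In the dorsal telencephalon Neurog2 and Neurog1 commit progenitors to the neuronal fate and induce Neurod4, Neurod1 and Nhlh1 in intermediate progenitors and newborn neurons, while Neurod2, Neurod6 and Bhlhe22 mark postmitotic neurons of the cortex. Id proteins hold E proteins in dimers that cannot bind DNA, and Hes proteins, targets of Notch, repress proneural genes. The Hippo kinases encoded by Lats1 and Lats2 keep the coactivators YAP and TAZ in check.

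Lats1 stood at 58.8, 61.3, 59.5 and 59.5 CPM in dKO libraries 1 to 4, against 135.0, 133.3, 124.7, 132.7 and 136.4 CPM in WT libraries 1 to 5, without overlap. Lats2 was at 36.3 to 56.4 CPM in dKO and 20.2 to 32.4 CPM in WT, a rise relative to the library (log2 fold change 0.69, edgeR adjusted p = 0.0144). Its gene-level count includes exons that a deletion may leave, so it does not check the label. The gene-level count of Lats1 is subject to the same limit. The libraries held 16566763 to 45803152 gene counts in dKO and 12906561 to 39263370 in WT. Gene counts per spike-in count were 79.1 ± 5.90 in dKO (SD, n = 4) and 58.1 ± 6.10 in WT (n = 5), a log2 difference of 0.45 (two-sided exact permutation p = 0.00794, the smallest that 126 assignments can give). WT 2, 3 and 4 had 39.3% to 41.3% of their reads in no gene, against 32.0% to 35.6% in the other 6 libraries, so values without them are given where they change a result. Markers of the telencephalon were present in every library. The summed level of Emx1, Emx2, Lhx2, Dlx1, Dlx2, Gsx2 and Nkx2-1 was 348 to 408 CPM in dKO and 493 to 520.3 CPM in WT. Dlx1, at a mean of 89.8 CPM in dKO and 164 CPM in WT, made up the largest part of that difference. Of the 7 genes 3, Emx1, Dlx1 and Dlx2, fell relative to the library (edgeR, adjusted p under 0.05), where 12.0% of all genes did. Emx2, Lhx2, Gsx2 and Nkx2-1 did not pass. Without WT 2, 3 and 4 only Dlx1 and Dlx2 fell.

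Relative to the library, 3 of the 10 bHLH genes fell in dKO and 0 rose (edgeR, adjusted p under 0.05). Of all 17182 genes tested, 12.0% fell and 13.7% rose by the same rule, 25.7% in either direction. The 3 were Neurog2, Nhlh1 and Tcf4. The other early genes had values of similar size that did not pass, the late genes Neurod2, Neurod6 and Bhlhe22 had larger but far more scattered values, and Tcf3 lay at 0.03 on the log2 scale. In all, 9 of the 10 values were below 0 with a median of -0.33, against 51.5% of all genes below 0 and a median of -0.01. DESeq2 called 3 falls and 0 rises, and limma-voom 4 falls and 0 rises, the fourth being Neurod1. The share of all genes called by these other tools was not counted. At an unadjusted p under 0.05 edgeR had 6 of the genes lower and 0 higher, but the share of all genes at that threshold was not counted. These 6 therefore have no background to be read against. All 10 genes passed the filter on low counts, and their counts per library ran from 75 for Neurod4 to 27130 for Tcf4.

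**Figure D1:**
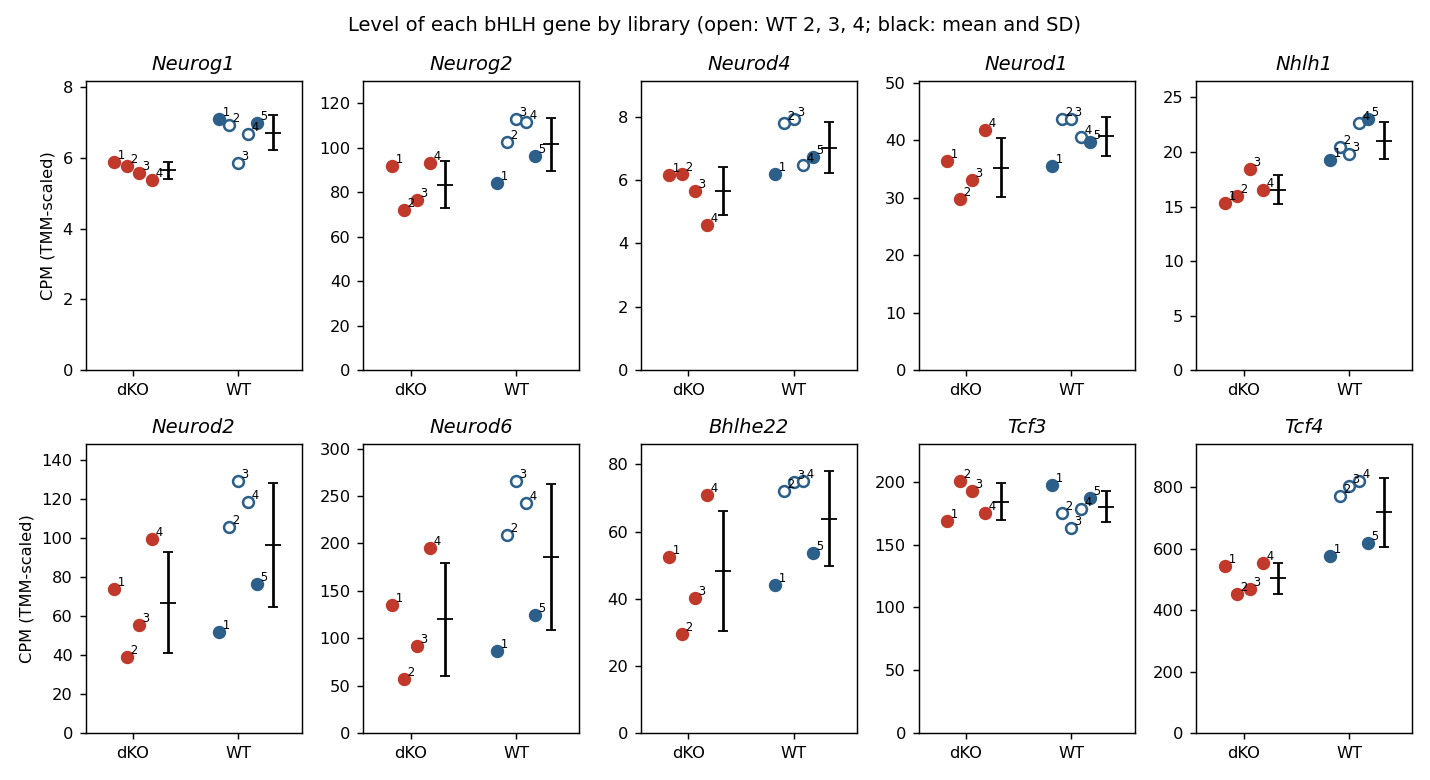
Each panel gives the TMM-scaled CPM of 1 bHLH gene in the 4 dKO libraries (red, left) and the 5 WT libraries (blue, right), numbered by replicate, with group mean and SD in black and WT 2, 3 and 4 as open circles. The groups are apart for Neurod4, Nhlh1 and Tcf4, overlap slightly for Neurog1 and Neurog2, and spread widely for Neurod2, Neurod6 and Bhlhe22.

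The promoters of 8 of the 10 genes were matched by symbol in RefSeq's table (GRCm38.p6), as windows from 250 bases before to 50 after the gene start, while Bhlhe22 and Tcf4 were not. The count files use another build, so these windows serve only to show sequence. E-boxes were searched as CANNTG, which reads the same on both strands, and 6 of the 8 windows held at least 1, against 72.2% of 27025 genes. CAGATG or its reverse CATCTG, the form preferred by Neurog2 and Neurod factors, occurred in 2 of the 8, Nhlh1 and Neurod2, against 17.2% of genes. Positions are counted from the first transcribed base as 1, and the base before it as -1. Of the windows, 4 are printed, those of Neurog2 and Nhlh1, which fell, and of Neurod2 and Neurod6, which varied together, with E-boxes in capitals, 5′ to 3′ on the strand of the gene.
Neurog2, chr3:127632886-127633185, plus strand: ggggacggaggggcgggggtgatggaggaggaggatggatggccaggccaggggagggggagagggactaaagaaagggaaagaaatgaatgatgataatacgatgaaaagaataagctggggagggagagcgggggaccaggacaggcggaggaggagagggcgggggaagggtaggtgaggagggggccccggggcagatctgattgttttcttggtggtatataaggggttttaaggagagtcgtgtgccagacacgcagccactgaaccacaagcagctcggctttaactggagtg
Nhlh1, chr1:172057547-172057846, minus strand: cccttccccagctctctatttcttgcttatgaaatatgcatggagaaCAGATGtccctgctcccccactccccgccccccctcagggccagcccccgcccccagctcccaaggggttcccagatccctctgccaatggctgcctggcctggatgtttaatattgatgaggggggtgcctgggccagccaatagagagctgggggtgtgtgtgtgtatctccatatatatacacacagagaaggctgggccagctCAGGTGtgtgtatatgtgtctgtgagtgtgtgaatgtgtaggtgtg
Neurod2, chr11:98329596-98329895, minus strand: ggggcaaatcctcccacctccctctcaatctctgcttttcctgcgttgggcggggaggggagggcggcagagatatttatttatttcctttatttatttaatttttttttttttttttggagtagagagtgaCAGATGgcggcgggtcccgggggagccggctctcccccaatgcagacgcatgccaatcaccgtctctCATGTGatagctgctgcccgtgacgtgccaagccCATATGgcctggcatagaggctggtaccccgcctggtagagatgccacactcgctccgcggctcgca
Neurod6, chr6:55681214-55681513, minus strand: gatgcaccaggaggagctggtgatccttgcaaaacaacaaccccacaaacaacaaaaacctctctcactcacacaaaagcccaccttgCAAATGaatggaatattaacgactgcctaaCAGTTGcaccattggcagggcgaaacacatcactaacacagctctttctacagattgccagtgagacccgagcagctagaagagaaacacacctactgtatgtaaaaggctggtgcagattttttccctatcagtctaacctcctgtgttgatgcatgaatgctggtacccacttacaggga
The window of Neurog2 holds no E-box. That of Nhlh1 holds CAGATG at position -203 and another E-box, CAGGTG, at position 5, counted from the start that RefSeq gives, and a stretch of the window after that start was not found in a GENCODE M21 transcript of Nhlh1. That of Neurod2 holds CAGATG at position -118 and further E-boxes at positions -51 and -17. That of Neurod6 holds E-boxes of other letters at positions -162 and -132. A match is a description of the letters in this window, and binding was not measured.

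Neurog2, the main proneural factor of the cortex, had 91.9, 72.3, 76.4 and 93.3 CPM in dKO libraries 1 to 4, against 84.3, 102.7, 113.1, 111.8 and 96.5 CPM in WT libraries 1 to 5. Only WT 1 lay within the dKO range. The mean was 83.5 ± 10.7 CPM in dKO (SD, n = 4) and 101.7 ± 11.9 CPM in WT (n = 5), a log2 fold change relative to the library of -0.29 (SE 0.10, edgeR adjusted p = 0.0480). The call was narrow: it held in 3 of the 9 fits that each left out 1 library, where the value ranged from -0.35 to -0.22. It did not pass without dKO 2 or 3, or without WT 2, 3, 4 or 5, and without WT 2, 3 and 4 together the value was -0.12 (adjusted p = 0.597, edgeR). Neurog1, which acts beside Neurog2 in the dorsal telencephalon, was much less abundant, with 5.90, 5.78, 5.56 and 5.37 CPM in dKO libraries 1 to 4 and 7.11, 6.94, 5.86, 6.69 and 6.99 CPM in WT libraries 1 to 5. The highest dKO library exceeded only WT 3. Its relative log2 fold change was -0.24 (SE 0.09, adjusted p = 0.0726, edgeR; 95% interval -0.44 to -0.04).

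Neurod4, a factor of committed neuronal precursors, had 6.17, 6.18, 5.65 and 4.58 CPM in dKO libraries 1 to 4, against 6.19, 7.79, 7.93, 6.46 and 6.71 CPM in WT libraries 1 to 5. All 4 dKO libraries were lower than all 5 WT libraries, with dKO 2 just below WT 1. The relative log2 fold change of -0.31 (SE 0.12) did not pass (adjusted p = 0.0780, edgeR). Neurod1, which follows Neurog2 in intermediate progenitors, had 36.4, 29.7, 33.1 and 41.9 CPM in dKO libraries 1 to 4 and 35.6, 43.7, 43.8, 40.6 and 39.8 CPM in WT libraries 1 to 5. The groups overlapped, with dKO 4 above WT 1, 4 and 5. Its relative log2 fold change was -0.21 (SE 0.10, adjusted p = 0.124, edgeR).

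Nhlh1, a factor of newly formed neurons, fell in dKO, with 15.3, 15.9, 18.4 and 16.5 CPM in dKO libraries 1 to 4 and 19.3, 20.5, 19.8, 22.7 and 23.1 CPM in WT libraries 1 to 5. The groups did not overlap. The mean was 16.5 ± 1.34 CPM in dKO (SD, n = 4) and 21.04 ± 1.71 CPM in WT (n = 5), a log2 fold change relative to the library of -0.35 (SE 0.08, edgeR adjusted p = 0.00622). It passed in all 9 fits that left out 1 library, between -0.40 and -0.31. Without WT 2, 3 and 4 the value was -0.37 and did not pass (adjusted p = 0.102). In CPM, 3 of the 10 bHLH genes, Neurod4, Nhlh1 and Tcf4, had all dKO libraries below all WT libraries, where 9.74% of all genes tested did (22.3% were apart in either direction).

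The genes of postmitotic neurons differed more between libraries of 1 genotype than between genotypes. Neurod6, a marker of cortical projection neurons, had 134.8, 57.1, 92.2 and 195.6 CPM in dKO libraries 1 to 4, against 85.9, 208.4, 265.3, 242.8 and 124.5 CPM in WT libraries 1 to 5. The highest library was 3.42 times the lowest within dKO and 3.09 times within WT. The means were 119.9 ± 59.6 CPM in dKO (SD, n = 4) and 185.4 ± 77.2 CPM in WT (n = 5), and the relative log2 fold change of -0.64 (SE 0.37) did not pass (adjusted p = 0.228, edgeR; 95% interval -1.45 to 0.16).

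Neurod2, expressed in maturing excitatory neurons, had 73.9, 39.0, 55.4 and 99.5 CPM in dKO libraries 1 to 4 and 52.0, 105.9, 129.1, 118.5 and 76.6 CPM in WT libraries 1 to 5. Bhlhe22, also known as Bhlhb5 and needed for area identity of cortical neurons, had 52.4, 29.4, 40.3 and 70.9 CPM in dKO and 44.2, 71.9, 74.7, 74.9 and 53.5 CPM in WT, in the same order. For both genes, as for Neurod6, dKO 2 was the lowest of the 9 libraries, WT 1 and dKO 3 were low, and dKO 4 stood close to WT 2, 3 and 4 at the top. The relative log2 fold change was -0.55 for Neurod2 (SE 0.28, adjusted p = 0.184, edgeR) and -0.42 for Bhlhe22 (SE 0.23, adjusted p = 0.206, edgeR). Without WT 2, 3 and 4 the values were 0.04 for Neurod2, 0.17 for Neurod6 and -0.03 for Bhlhe22, none of which passed.

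**Figure D2:**
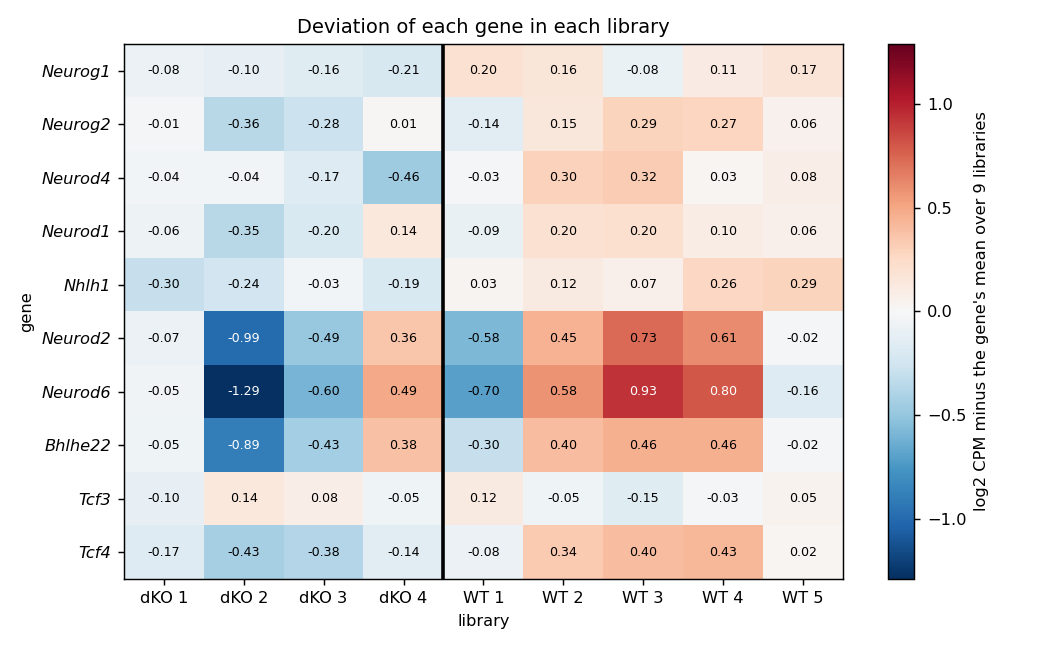
Colour and number give, for each bHLH gene (rows, early at the top, E proteins at the bottom) and library (columns, dKO left of the black line, WT right), the log2 CPM minus the mean of that gene over 9 libraries. Neurod2, Neurod6 and Bhlhe22 share 1 pattern, from -1.29 for Neurod6 in dKO 2 to 0.93 in WT 3, while Nhlh1 stays within -0.30 to 0.29. Neurog2, Neurod1 and Tcf4 show it in part at smaller size. They are also lowest in dKO 2, at -0.36, -0.35 and -0.43, and lie above their means in WT 2, 3 and 4.

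The spread within a genotype shows the contrast. The SD of log2 CPM within groups was 0.72 for Neurod6, 0.56 for Neurod2 and 0.44 for Bhlhe22, against 0.09 for Neurog1, 0.18 for Neurog2, 0.18 for Neurod4, 0.17 for Neurod1 and 0.12 for Nhlh1. Over the 10592 tested genes with a mean of at least 10 CPM the median was 0.09. Neurod6 was more variable than 99.8% of them, Neurod2 than 99.5% and Bhlhe22 than 98.9%. Tcf4, with an SD of 0.20, was more variable than 91.4%, Neurog2 than 88.5%, Neurod4 than 88.3% and Neurod1 than 85.9%. For Nhlh1 the share was 69.7%, for Tcf3, with an SD of 0.11, 65.3% and for Neurog1 55.3%. These 3 genes share the same 9 libraries, so their common pattern is 1 observation and not 3. Neurog2, Neurod1 and Tcf4 followed that pattern in part, at smaller size, so their values are not separate from it either.

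Values of other markers moved with these libraries in part, and their part in the result was not tested. The summed level of the ventral markers Dlx5, Dlx6, Gad1, Gad2, Slc32a1, Lhx6 and Sp9 was 234, 241.5, 244 and 163 CPM in dKO libraries 1 to 4. It was lowest in dKO 4, where Neurod6 was highest among dKO libraries. In WT libraries 1 to 5 the sum was 335, 360, 395, 349 and 354 CPM. Within WT, library WT 3 was highest and WT 1 lowest both for this sum and for Neurod6. All 7 of these ventral markers fell relative to the library, where 12.0% of all genes did, and 3 of them fell without WT 2, 3 and 4. The choroid plexus markers Ttr, Folr1, Kcne2 and Clic6 summed to 128.5 to 186 CPM in dKO, and in WT to 421, 408 and 235 CPM in WT 2, 3 and 4 and to 181 and 86.5 CPM in WT 1 and 5. Of these 4 markers 0 passed in edgeR, and 0 had an unadjusted p under 0.05. Diencephalon markers summed to 72.9, 91.2, 88.9 and 55.1 CPM in dKO libraries 1 to 4. In WT libraries 1 to 5 they summed to 93.7, 71.5, 67.5, 65.7 and 90.6 CPM. This sum was highest in dKO 2 and WT 1, where Neurod6 was lowest within each group. Erythroid markers were likewise highest there, at 110 CPM in dKO 2 and 187 CPM in WT 1. Endothelium and mesenchyme markers were highest within WT in WT 5. The 9 general neuron markers found in the files, such as Tubb3, Dcx and Stmn2, summed to 2032 to 2195 CPM in dKO and 2330 to 2707 CPM in WT, and dKO 4, rich in Neurod6, had 2036 CPM. Of these 9 markers 4 fell, Tubb3, Dcx, Elavl3 and Tbr1, against 12.0% of all genes. Stmn2, Nefl, Nefm, Snap25 and Gap43 did not pass, and without WT 2, 3 and 4 only Dcx fell. Markers of cranial ganglia and olfactory epithelium, tissues that also express Neurog1, Neurod1 and Neurod4, summed to 48.5 to 61.2 CPM in dKO and 53.3 to 70.1 CPM in WT, mostly Isl1, with Omp under 1 CPM in every library. Markers of intermediate progenitors, cells that express Neurog2 and Neurod1, summed to 528 to 591 CPM in dKO and 646 to 763 CPM in WT, and 6 of the 8 fell, against 12.0% of all genes. Of them 1, Btg2, fell without WT 2, 3 and 4. Radial glia markers summed to 3884 to 4282 CPM in dKO and 2540 to 2911 CPM in WT. Of the 9, 2 were higher, Vim and Nes, and 2 lower, Hes5 and Fabp7, against 13.7% and 12.0% of all genes. Without WT 2, 3 and 4 Vim and Nes still rose, and Hes5 and Fabp7 did not pass (adjusted p = 0.0658 and 0.0679, edgeR). Vim averaged 1689 CPM in dKO and 709 CPM in WT, and Nes 1178 CPM in dKO and 784 CPM in WT, so these 2 genes make up the difference between the sums. In whole tissue, fewer cells of a type and less RNA per cell of that type cannot be told apart.

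Tcf4 and Tcf3, the E proteins, are counted under symbols distinct from Tcf7l2 and Tcf7l1, Wnt factors that older texts call by the same names. Tcf4, an E protein gene active in developing neurons, had 542, 452, 468 and 553 CPM in dKO libraries 1 to 4, against 577, 772, 804, 819 and 619 CPM in WT libraries 1 to 5. The groups did not overlap, and the gap was narrow between dKO 4 and WT 1. The mean was 504 ± 51.1 CPM in dKO (SD, n = 4) and 718 ± 112 CPM in WT (n = 5), a log2 fold change relative to the library of -0.51 (SE 0.11, edgeR adjusted p = 0.00645), and it passed in all 9 fits without 1 library (-0.58 to -0.45). Without WT 2, 3 and 4 the value was -0.25 and did not pass (adjusted p = 0.160).

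Tcf3, which encodes the E2A proteins of progenitors, had 169.0, 200.2, 192.3 and 175.2 CPM in dKO libraries 1 to 4 and 197.0, 174.9, 163.5, 178.4 and 187.4 CPM in WT libraries 1 to 5, fully overlapping. Its relative log2 fold change was 0.03 (SE 0.06, adjusted p = 0.749, edgeR; 95% interval -0.10 to 0.17). Tcf12, the remaining E protein gene, had 297 ± 21.2 CPM in dKO (SD, n = 4) and 302 ± 14.2 CPM in WT (n = 5), with a relative log2 fold change of -0.02 (adjusted p = 0.818, edgeR).

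Per counted cell, 1 of the 10 genes rose in dKO, Tcf3, and 0 fell (edgeR), while 61.1% of all genes tested rose and 0.698% fell by the same rule, 61.8% in all. DESeq2 and limma-voom also had 0 falls, and edgeR had 0 at an unadjusted p below 0.05. Tcf3 had 11.8, 16.9, 15.1 and 14.4 counts per 1000 spike-in counts in dKO libraries 1 to 4, against 10.7, 8.70, 10.4, 10.9 and 11.7 in WT libraries 1 to 5. The groups did not overlap, as at 48.4% of all genes tested on the higher side and 0.134% on the lower, 48.6% in all. The per-cell log2 fold change of Tcf3 was 0.48 (SE 0.11, adjusted p = 0.000499, edgeR), close to the median of 0.43 over all genes, and it passed in all 9 fits that left out 1 library.

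The other 9 genes had per-cell log2 fold changes between -0.22 for Neurod6 and 0.22 for Neurod1, and the median of all 10 was 0.10. All 10 values were above 0 without WT 2, 3 and 4, with a median of 0.31, and Bhlhe22 was at 0.39, against 0.01 with all libraries. In that fit only 6.42% of all genes were below 0 and their median was 0.43, so the median of the 10 lay below the typical gene. Neurog2 had 6.43, 6.09, 6.01 and 7.69 counts per 1000 spike-in counts in dKO libraries 1 to 4 and 4.56, 5.11, 7.21, 6.82 and 6.03 in WT libraries 1 to 5, with the groups interleaved. Its per-cell log2 fold change was 0.14 (SE 0.12, adjusted p = 0.317, edgeR; 95% interval -0.10 to 0.38). Nhlh1 had 1.07, 1.34, 1.45 and 1.36 counts per 1000 spike-in counts in dKO and 1.04, 1.02, 1.26, 1.38 and 1.44 in WT, with a per-cell log2 fold change of 0.08 (SE 0.13, edgeR adjusted p = 0.600; 95% interval -0.19 to 0.35). The per-cell value of Neurog2 without WT 2, 3 and 4 was 0.30 (SE 0.14, adjusted p = 0.0673, edgeR). Tcf4 had 36.8 to 45.6 counts per 1000 spike-in counts in dKO and 31.2 to 51.2 in WT, at -0.08 (95% interval -0.34 to 0.18). Neurog1 (0.19), Neurod4 (0.12), Bhlhe22 (0.01) and Neurod2 (-0.12) did not pass either. Neurod6 had 9.43, 4.81, 7.25 and 16.1 counts per 1000 spike-in counts in dKO libraries 1 to 4 and 4.65, 10.4, 16.9, 14.8 and 7.77 in WT libraries 1 to 5. Its per-cell value depended on the libraries used: it was 0.59 without WT 2, 3 and 4, a rise that passed (adjusted p = 0.0241, edgeR), where 49.1% of all genes rose and 0.25% fell, and -0.61 without dKO 4, a fall that passed (adjusted p = 0.000365, edgeR). It also passed as a fall without WT 1, at -0.41 (adjusted p = 0.0216, edgeR), and Neurod2 did so without dKO 4, at -0.41 (adjusted p = 0.0123, edgeR).

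**Figure D3:**
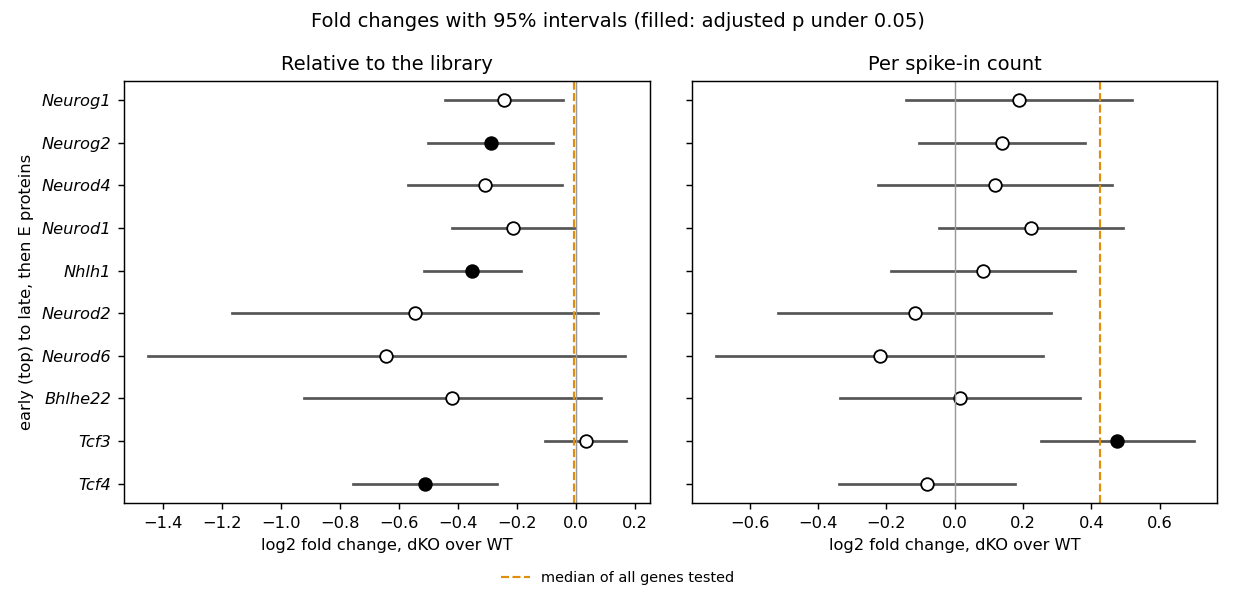
Points are edgeR log2 fold changes of dKO over WT with 95% intervals for each bHLH gene, relative to the library (left) and per spike-in count (right), filled where the adjusted p was under 0.05. The dashed line is the median of all 17182 genes tested, -0.01 on the left and 0.43 on the right, and Tcf3 is the only gene of the 10 whose per-cell value lies above it.

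Leaving out WT 2, 3 and 4 compares 4 dKO libraries with 2 WT libraries and so has less power. In that fit 0 of the 10 genes passed relative to the library (edgeR), where 0.949% of all genes fell and 2.51% rose. Neurog1 (-0.31), Nhlh1 (-0.37) and Tcf4 (-0.25) had an unadjusted p under 0.05, a threshold for which the share of all genes was not counted. Neurog2 was at -0.12, Neurod4 at -0.19 and Neurod1 at -0.11, and the median over the 10 genes was -0.11.

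**Figure D4:**
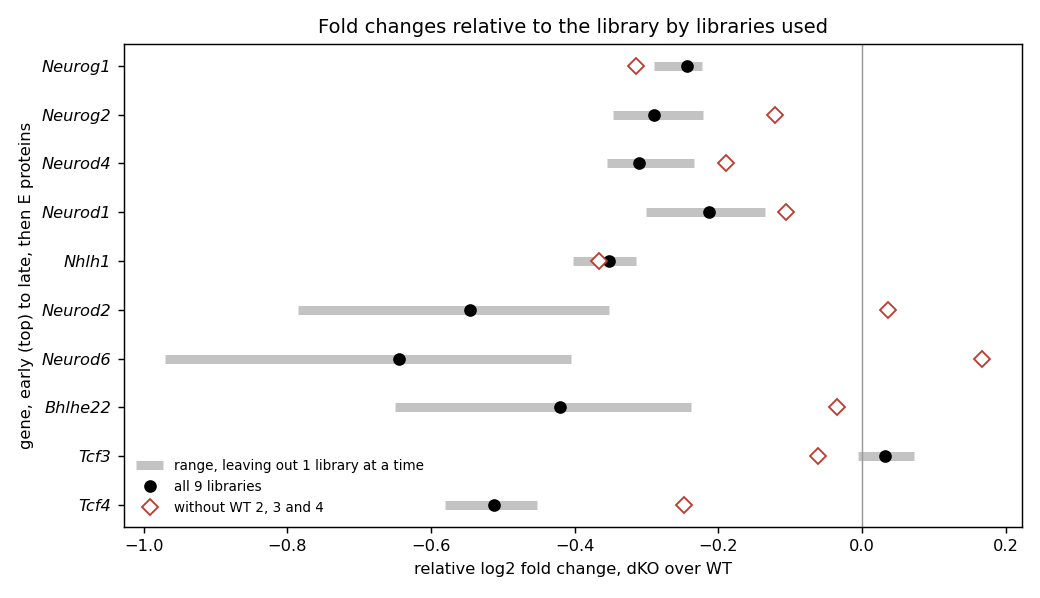
The relative log2 fold change of each bHLH gene is shown with all 9 libraries (black), as the range over the fits that leave out 1 library each (grey bar) and without WT 2, 3 and 4 (red diamond). Nhlh1 stays between -0.40 and -0.31 throughout, while Neurod2 and Neurod6 move to 0.04 and 0.17 without the 3 WT libraries.

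Ratios between genes within a library need no scaling, and 5 were compared, with p-values adjusted over the 5. None passed, with the smallest adjusted p at 0.318. The count of Neurod1 per count of Neurog2 was nearly constant, at 0.397, 0.411, 0.433 and 0.449 in dKO libraries 1 to 4 and 0.423, 0.425, 0.387, 0.364 and 0.412 in WT libraries 1 to 5. Its log2 difference was 0.07 (SE 0.06, two-sided exact permutation p = 0.302, adjusted 0.417). The count of Neurod6 per count of Neurog2 was 1.47, 0.790, 1.21 and 2.10 in dKO and 1.02, 2.03, 2.35, 2.17 and 1.29 in WT, a log2 difference of -0.37 (SE 0.38, exact permutation p = 0.333, adjusted 0.417), and that of Neurod6 per Neurod1 differed by -0.44 (SE 0.38, exact permutation p = 0.278, adjusted 0.417). Neurog1 per Neurog2 differed by 0.04 (SE 0.16, exact permutation p = 0.825, adjusted 0.825).

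The count of Tcf4 per count of Tcf3 was 3.21, 2.26, 2.43 and 3.15 in dKO libraries 1 to 4 and 2.93, 4.41, 4.92, 4.59 and 3.30 in WT libraries 1 to 5. WT 1 was the only WT library inside the dKO range. The log2 difference was -0.53 (SE 0.19, two-sided exact permutation p = 0.0635, adjusted 0.318).

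**Figure D5:**
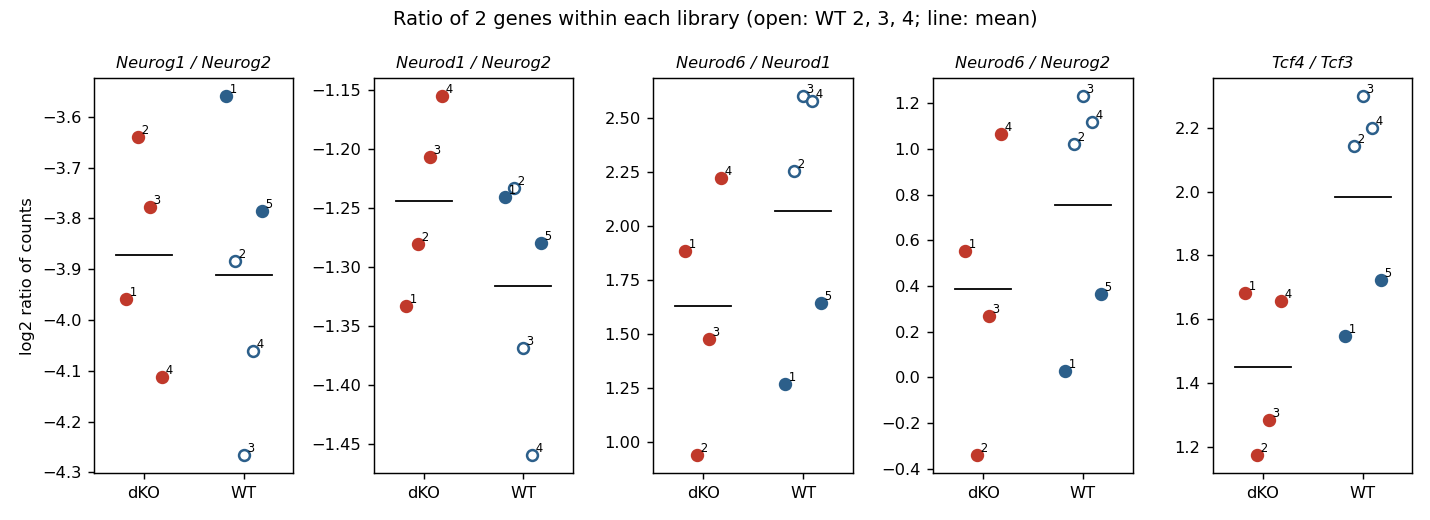
Each panel gives the log2 ratio of the counts of a pair of bHLH genes within each library, dKO (red) left of WT (blue), with group means as lines and WT 2, 3 and 4 as open circles. Each panel has its own vertical scale, and WT 2, 3 and 4 hold the 3 highest ratios of Tcf4 to Tcf3 and, together with dKO 4, the 4 highest of both ratios with Neurod6.

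Levels of different genes were compared as CPM per kilobase of exon, with exon lengths from GENCODE M21. In dKO the order was Neurod6 at 55.8 ± 27.7, Tcf3 at 45.6 ± 3.59, Neurog2 at 37.5 ± 4.80, Neurod2 at 21.3 ± 8.27, Tcf4 at 18.4 ± 1.87, Bhlhe22 at 14.4 ± 5.32 and Neurod1 at 12.9 ± 1.90 CPM per kilobase (SD, n = 4). In WT it was Neurod6 at 86.2 ± 35.9, Neurog2 at 45.7 ± 5.33, Tcf3 at 44.6 ± 3.14, Neurod2 at 30.7 ± 10.1, Tcf4 at 26.2 ± 4.10, Bhlhe22 at 19.1 ± 4.23 and Neurod1 at 14.9 ± 1.23 CPM per kilobase (SD, n = 5). Nhlh1, Neurog1 and Neurod4 followed in both groups, at 6.71, 3.35 and 1.69 in dKO and 8.54, 3.99 and 2.10 in WT. Neurog2 and Tcf3 stood in a different order in the groups, but in WT they differed by less than the larger of their SDs. By that measure the neighbours Neurod2 and Tcf4, and Bhlhe22 and Neurod1, did not differ beyond their spread in either group, nor did Neurod6 and Tcf3, or Tcf4 and Bhlhe22, in dKO. The level of Tcf4 rests on a summed exon length of 27.4 kilobases over all its annotated transcripts, which lowers it if few of them are used.

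Genes outside the list with the most similar profile over the 9 libraries were sought among 9659 with a mean of at least 10 CPM, leaving out predicted and clone-named genes, by the root mean square difference of centred log2 CPM. For Neurog2 these were Smarca2 (0.05), Vldlr (0.05) and Rabgap1l (0.05), and Neurod1 (0.09) ranked 61. For Neurod1 they were Acat1 (0.04), Dnajc6 (0.05) and Gfod1 (0.06). For Neurod6 they were Fam49a (0.15), Grm5 (0.18) and Cdh13 (0.19), and Neurod2 (0.16) was nearer than all but Fam49a. All profiles include the difference between groups and the spread between libraries.

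Known targets of proneural factors were mostly lower in dKO relative to the library. Of 17 tested, 13 fell relative to the library and 0 rose (edgeR, with 12.0% of all genes lower), and the median log2 fold change was -0.31 against -0.01 over all genes. Rcor2, a corepressor of progenitors, had 155 ± 9.64 CPM in dKO (SD, n = 4) and 194 ± 6.90 CPM in WT (n = 5), a log2 fold change of -0.32 (SE 0.05, edgeR adjusted p = 0.000690). The microtubule gene Dcx was at -0.48 (SE 0.07) and the corepressor gene Cbfa2t2 at -0.31 (SE 0.05). Insm1 was at -0.01 and did not pass (adjusted p = 0.936), and Dll1 (-0.24), Dll3 (-0.39) and Rnd2 (-0.29) did not pass either. Without WT 2, 3 and 4, Rcor2, Dcx and Btg2 still fell, and the median was -0.33. Per cell 1 rose, Insm1 at 0.41, and 0 fell, with a median of 0.12. Of all genes 61.1% rose per cell and 0.698% fell, with a median of 0.43, so Insm1 lay just below the typical gene. The list was drawn up with earlier results of these data in view, so it is no independent evidence of direction. It shares Eomes, Insm1, Btg2, Gadd45g, Mfng and Dll3 with the intermediate progenitor markers. Dcx and Tbr1 are also among the neuron markers, and Hes6 is also among the antagonists. Counts from these lists are therefore not separate results.

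Antagonists went both ways. Relative to the library, 2 of 10 tested Id, Hes and Hey genes rose and 3 fell, against 13.7% and 12.0% of all genes. Hes1, a Notch effector that represses proneural genes, rose to 58.0 ± 7.41 CPM in dKO (SD, n = 4), against 32.3 ± 3.27 CPM in WT (n = 5), a log2 fold change of 0.85 (SE 0.09, edgeR adjusted p = 0.000165). Id4, which sequesters E proteins, had 349 ± 37.1 CPM in dKO and 243.5 ± 13.9 CPM in WT, a rise of 0.52 (SE 0.07, adjusted p = 0.000446, edgeR). Both still rose without WT 2, 3 and 4. Hes5 (-1.03), Hey1 (-0.35) and Hes6 (-0.30) fell, and none of these 3 passed without WT 2, 3 and 4 (adjusted p = 0.0658 for Hes5, 0.0523 for Hey1 and 0.103 for Hes6, edgeR). Id1 (-0.15), Id2 (-0.19) and Id3 (0.05) did not pass. Hes6 counters Hes1 and is itself induced by proneural factors.

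Among other neural bHLH genes, 8 of 15 were tested. Relative to the library 2 rose and 0 fell (edgeR), with a median of 0.07, while 13.7% of all genes rose. Olig1 (-0.62) and Bhlhe40 (0.35) had an unadjusted p under 0.05 and did not pass. Atoh8 rose by a log2 of 0.89 (SE 0.17, adjusted p = 0.00375, edgeR), with 6.06 ± 0.738 CPM in dKO and 3.33 ± 0.833 CPM in WT, and Bhlhe41 by 0.73 (SE 0.21). Neither passed without WT 2, 3 and 4. Nhlh2, the close relative of Nhlh1, had 51.3 ± 4.10 CPM in dKO and 46.3 ± 7.23 CPM in WT, with a relative log2 fold change of 0.15 that did not pass (adjusted p = 0.318, edgeR). It rose per cell by 0.59 (adjusted p = 0.000317, edgeR), where 61.1% of all genes rose and the median over all genes was 0.43.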

How the data were processed

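The authors deposited raw read counts by gene symbol, in 1 file for each library, made with STAR and HTSeq on mm9, per the submitters' processing notes. Versions, annotation and strand setting: not given in the sources used here. Per the labels' protocols, 350 ng of total RNA per library entered a stranded kit. Each file lists 34590 genes, 92 spike-ins and 5 counter rows. The counter rows stayed out of library sizes and tests, and 32.0% to 41.3% of reads were in no gene. None of the member genes overlaps a counted gene in GENCODE M21 apart from Neurod1, which overlaps the scarce Cerkl.

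Genes were filtered by filterByExpr and tested with edgeR 4.0.16 in R 4.3.3 (quasi-likelihood F test over 17182 genes, Benjamini-Hochberg adjustment, threshold 0.05), scaled by TMM (relative) or by total spike-in counts (per cell). SE is the fold change over the root of F, and 95% intervals use 7 residual and 4.37 or 28.4 prior degrees of freedom. The fits were also run on simulated counts in which each gene varied independently, so that run does not cover variation that genes share between libraries. Per-cell p-values share 9 spike-in totals. Ratios used counts plus 0.5 and a two-sided exact permutation test. Alternatives were DESeq2 1.42.0, limma-voom (limma 3.58.1), other filters and scalings, libraries left out and a replicate block. Each library was taken as 1 embryo, as the labels count embryos. Genes were named as all 10 members, the 3 smallest p of each list and the 3 nearest profiles, and others were chosen after their values were seen. The members, order and lists were chosen with earlier results of these data known. Some genes of the lists are not reported here and were left out of their sums, counts and medians.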

Additional observations from a re-analysis of the deposited data

Results flagged for a closer look

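Within the 4 dKO libraries, dKO 4 stood far from the other 3 for Neurod1 per spike-in count, at 3.45 counts per 1000 spike-in counts against 2.51 to 2.60, a gap of 0.897 of the range of the group. The same library stood apart for Tcf4, at 45.6 against 36.8 to 38.1 counts per 1000 spike-in counts, a gap of 0.851 of the range. The limit for 4 libraries is 0.829. In all, 50 groups of libraries were checked over the 10 genes on both scales and the 5 ratios, and chance flags about 1 in 20 groups. dKO 4 was also the dKO library with the highest Neurod2, Neurod6 and Bhlhe22.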

How the results depend on the processing

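The count of 3 calls relative to the library was 2 to 4 under the other tools, filters and scalings and in the replicate block (2), 2 to 5 without 1 library, and 0 without WT 2, 3 and 4. Its extra calls without dKO 4 were Neurod1 (-0.30) and Bhlhe22 (-0.65). Per cell, the count of 1 was 1 to 3 without 1 library (3 without dKO 4, 2 without WT 1) and 2 both without WT 2, 3 and 4 and in the replicate block, where Neurod6 was at -0.31 (adjusted p = 0.0323, edgeR). Tcf3 per cell passed in all 16 alternatives (0.38 to 0.56). The share of all genes called was counted for edgeR only, with all libraries and without WT 2, 3 and 4, so the other counts have no background.

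Without WT 2, 3 and 4, values turned round for Neurod2 (0.0362), Neurod6 (0.17) and Tcf3 (-0.0605) relative to the library, and for Neurod2 (0.45), Neurod6 (0.59) and Tcf4 (0.18) per cell. The log2 ratio differences turned for Neurod6 to Neurod1 (0.17), Neurod6 to Neurog2 (0.19) and Neurog1 to Neurog2 (-0.20). Leaving out 1 library at a time turned values near 0 as well. Tcf3 relative to the library ranged from -0.0047 to 0.0723, and per cell Neurod2 from -0.408 to 0.055, Tcf4 from -0.1702 to 0.0014 and Bhlhe22 from -0.26 to 0.17. Bhlhe22 per cell was also -0.0491 with limma-voom and -0.0401 in the replicate block. The ratio of Neurog1 to Neurog2 ranged from -0.0495 to 0.13 without 1 library, that of Neurod1 to Neurog2 from 0.04 to 0.10, of Neurod6 to Neurod1 from -0.64 to -0.21, of Neurod6 to Neurog2 from -0.59 to -0.12 and of Tcf4 to Tcf3 from -0.64 to -0.44. The cause was not tested. The log2 difference in gene counts per spike-in count was 0.45 without WT 2, 3 and 4 (p = 0.0667) and 0.48 in the replicate block (p = 0.125), both the smallest exact permutation p those designs can give.

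Same-numbered libraries did not deviate together (correlations of -0.13, -0.13, -0.22 and 0.11, against -0.23 to 0.25 for differently numbered libraries). These values gave no sign that the replicate numbers pair the embryos. A small shared effect would not show in them, so pairing remains unknown. The block was fitted to libraries 1 to 4 of each group. Neurog2 did not pass in it (-0.31, adjusted p = 0.0883, edgeR), nor without WT 5 alone (-0.31, adjusted p = 0.0540, edgeR). Besides Neurog2 and Neurod6 per cell, no call among the 10 genes differed in the block. Counting error limits Neurog1 and Neurod4 most, with 75 to 278 counts per library.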

Other observations

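Of the other neural bHLH genes, Olig3, Bhlhe23, Ptf1a, Atoh1, Atoh7, Neurog3 and Ferd3l stayed under 1 CPM in every library and were not tested. Olig2, a factor of ventral progenitors, had 8.14, 18.1, 11.5 and 4.15 CPM in dKO libraries 1 to 4 and 12.2 to 18.96 CPM in WT, with a relative log2 fold change of -0.51 (SE 0.31) that did not pass. Bhlhe40, a stress and clock factor, had 10.3 to 17.7 CPM in dKO and 8.78 to 11.7 CPM in WT, and did not pass relative to the library (0.35, adjusted p = 0.110, edgeR). It rose per cell (0.79, adjusted p = 0.000147, edgeR), where 61.1% of all genes did.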
